A study of Mus musculus with 12 samples.

Results

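The genes described here are 50 genes of the G2/M transition and mitosis, chosen by symbol for their known roles, with earlier results of these data known. All 50 symbols were found among the 41079 gene identifiers in the tables. RNA abundance was measured in mouse embryonic stem cells, pluripotent cells derived from the early embryo, in 12 libraries of 3 biological replicates per group. The groups were Bod1l knockout cells with etoposide, Bod1l knockout cells without it, wild-type cells with etoposide and untreated wild-type cells. BOD1L is a partner of the histone H3 methyltransferase SETD1A, and etoposide is a topoisomerase II poison that leaves broken DNA. The sample titles name tamoxifen for both knockout groups and for neither wild-type group, so the knockout and tamoxifen cannot be told apart. The dose and duration of etoposide, the strain of the cells and the number of clones are not given in the sources used here. The replicates are labelled biological without mention of separate cultures, so every p-value measures the spread between these libraries.

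In the G2/M transition, cyclin B bound to CDK1 is switched on by CDC25 phosphatases, and the Aurora and Polo-like kinases then drive spindle assembly. The spindle assembly checkpoint holds back CDC20, the activator of the anaphase-promoting complex, until every kinetochore is attached, after which securin and cyclin B are destroyed and sister chromatids separate. Transcription of many of these genes peaks late in the cell cycle through the MuvB core, which forms the repressive DREAM complex in arrested cells and joins MYBL2 and FOXM1 in cycling cells. MuvB binds the cell cycle genes homology region (CHR), whose commonest form is TTTGAA, and the factor NF-Y binds CCAAT boxes close by. Embryonic stem cells divide rapidly with short gap phases, and DNA damage halts them mostly in G2.

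Promoter sequence was examined because these genes share a mode of transcription, and the stretches printed here belong to genes whose RNA levels the results turn on. The RefSeq promoter table on GRCm38.p6, with 250 bases before and 50 after each transcription start, held 45 promoters for 41 of the 50 genes. Foxm1, Tpx2, Ccna2, Incenp, Cdc25c, Kif20a, Aurkb, Spc24 and Dlgap5 were not matched. Each stretch below runs 5′ to 3′ along the gene's own strand from 100 bases before the start to 30 bases after it. Capitals mark TTTGAA and CCAAT in either orientation, so that TTCAAA and ATTGG are the same motifs on the other strand. The minus-strand stretches lie at chr11:40733408-40733537 for Hmmr, chr9:70421525-70421654 for Ccnb2, chr2:172370541-172370670 for Aurka. The others on that strand lie at chr10:5805436-5805565 for Fbxo5, chr4:118437314-118437443 for Cdc20, chr2:69206184-69206313 for Spc25 and chr11:43425952-43426081 for Pttg1, and the plus-strand stretch lies at chr7:122159335-122159464 for Plk1.
Hmmr: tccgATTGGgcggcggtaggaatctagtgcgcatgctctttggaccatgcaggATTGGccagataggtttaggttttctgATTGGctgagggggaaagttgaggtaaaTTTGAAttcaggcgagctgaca
Ccnb2: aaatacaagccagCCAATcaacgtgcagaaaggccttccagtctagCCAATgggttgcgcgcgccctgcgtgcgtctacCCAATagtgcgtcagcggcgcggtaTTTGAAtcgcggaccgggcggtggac
Plk1: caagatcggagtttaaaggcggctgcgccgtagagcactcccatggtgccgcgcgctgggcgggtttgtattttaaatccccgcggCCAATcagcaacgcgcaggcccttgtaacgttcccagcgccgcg
Aurka: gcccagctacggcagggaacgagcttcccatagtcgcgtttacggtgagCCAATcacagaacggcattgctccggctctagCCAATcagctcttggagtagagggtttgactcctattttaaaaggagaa
Fbxo5: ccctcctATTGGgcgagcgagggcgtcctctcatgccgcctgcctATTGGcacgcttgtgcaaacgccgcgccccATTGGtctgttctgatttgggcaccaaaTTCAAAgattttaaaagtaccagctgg
Cdc20: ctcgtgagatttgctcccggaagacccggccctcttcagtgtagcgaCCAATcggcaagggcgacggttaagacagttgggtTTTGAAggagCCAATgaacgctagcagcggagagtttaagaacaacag
Spc25: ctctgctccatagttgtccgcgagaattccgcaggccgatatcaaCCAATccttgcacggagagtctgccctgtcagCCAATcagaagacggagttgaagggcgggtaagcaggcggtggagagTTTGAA
Pttg1: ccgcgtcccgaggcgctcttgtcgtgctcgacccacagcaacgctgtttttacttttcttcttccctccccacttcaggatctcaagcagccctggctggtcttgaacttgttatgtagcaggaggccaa

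TTTGAA on either strand was found in 33 of the 45 promoters (73.3%), against 17.9% of the 32851 promoters of the same length in the table. CCAAT on either strand was found in 34 of the 45 (75.6%), against 37.4% of all promoters, and at least 2 copies stood in 53.3% of members' promoters against 11.7% of all. Both motifs stood in 27 of the 45 promoters (60%), against 6.95% of all promoters. A CCAAT and a TTTGAA can share the T at their ends, and 4 genes entered with 2 promoters whose windows partly cover the same bases. Ccnb2 and Fbxo5 each showed 3 CCAAT boxes ahead of a TTTGAA placed 5 and 4 bases after the start. Hmmr held 5 CCAAT boxes ahead of a TTTGAA placed 9 bases after the start, and 3 of the 5 fall within the printed stretch. In Plk1 and Aurka the TTTGAA began 31 and 33 bases after the start, just past the printed stretch. Birc5, Mad2l1, Nuf2, Nusap1 and Pttg1 held neither motif in the window, which says nothing about the factors that bind there. Of the 21 members with a promoter that fell with etoposide in wild-type cells, 15 held TTTGAA, against 12 of the 18 that were not called. A match is a description of letters and not evidence of binding.

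**Figure D1:**
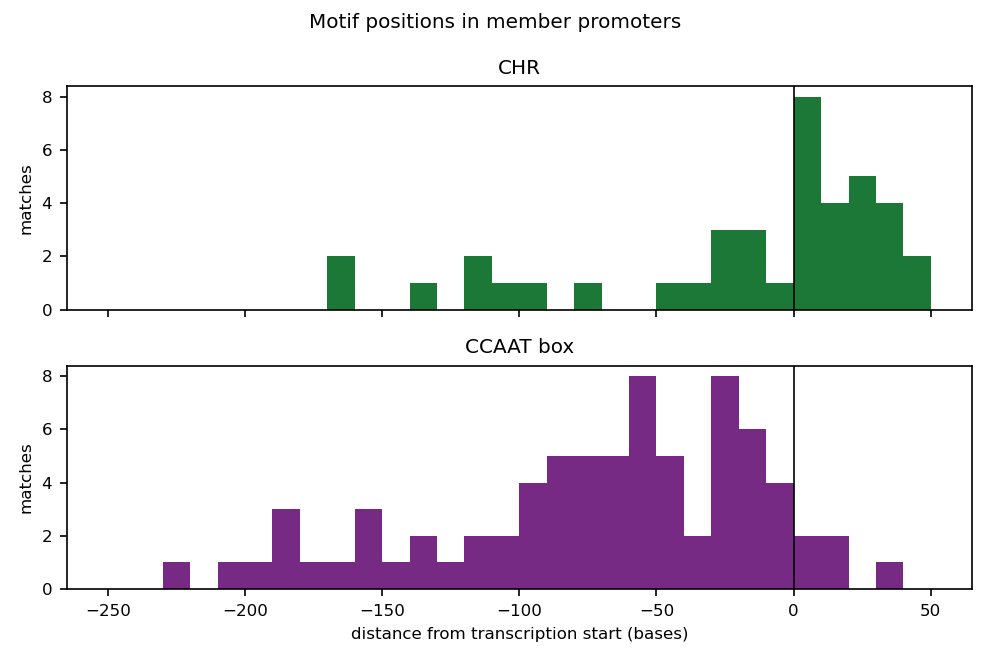
Positions of TTTGAA (CHR, upper panel) and CCAAT (lower panel) in 45 promoters of 41 G2/M and mitosis genes, as the number of matches in each 10-base bin against the distance from the transcription start in bases. Of 40 TTTGAA matches 32 lay within 50 bases of the start, and of 76 CCAAT matches 52 lay in the 100 bases before it.

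All 50 genes passed the abundance filter of a mean of at least 1 TPM, as did 14107 genes in all (TPM is a transcript level scaled for gene length and library total). Their mean levels ran from 17.3 TPM for Cdc25b to 489 TPM for Ube2c, with a median of 109 TPM against 20.8 TPM over all genes tested. In 32 of the 50 the mean was above 100 TPM, a level that 14.4% of the tested genes reached. The highest of each role were Ccnb1 among CDK1 partners, Aurka among mitotic kinases, Birc5 among chromosomal passengers, Bub1b in the checkpoint, Cenpa in the kinetochore, Ube2c at the anaphase-promoting complex, Kif20a among kinesins, Hmmr among spindle-associated proteins, Anln in cytokinesis, and Mki67 above Foxm1. The median spread between replicates of a gene was 2.23 to 2.66% of its mean in the 4 groups. Changes of well under 10% could be told from replicate error for some members, but not for those that spread more. Pttg1, at -9.57% with etoposide in wild-type cells, had overlapping libraries. The labelled markers Plk1, Aurka and Hmmr stood at the 90.9, 93.1 and 91.6 percentiles of tested genes by mean level.

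The genotype label and the cell type were checked first. Bod1l itself stood at 13.0, 12.4 and 11.7 TPM in etoposide-treated knockout libraries and 12.0, 11.2 and 11.5 TPM in untreated ones, against 46.5, 51.1 and 48.6 TPM in etoposide-treated wild-type libraries and 48.5, 48.8 and 50.6 TPM in untreated ones. Aligned depth was 6.88 to 7.76 gigabases in etoposide-treated knockout, 5.23 to 6.51 in untreated knockout, 5.78 to 7.04 in etoposide-treated wild-type and 6.64 to 7.30 in untreated wild-type libraries. Untreated knockout libraries were thus all shallower than untreated wild-type ones and than etoposide-treated knockout ones. The part of depth in those comparisons, and in the difference between genotypes in the etoposide change, was not tested. The 7 embryonic stem cell markers found, Pou5f1 and Sox2 among them, averaged at least 164 TPM each. Their summed level ran from 6809 to 7127 TPM in etoposide-treated knockout, 7135 to 7252 in untreated knockout, 7357 to 7693 in etoposide-treated wild-type and 7805 to 7816 in untreated wild-type libraries, and the part of this shift in the results was not tested. Of 8 feeder fibroblast markers, 5 (Col1a2, Col3a1, Postn, Dcn and Lum) averaged under 1 TPM, and all 8 summed to between 6.04 and 9.30 TPM in any library. Of 7 extraembryonic endoderm markers, 4 (Gata6, Sox17, Sox7 and Foxa2) averaged under 1 TPM, and none was at 0 in all libraries. The 7 summed to 7.05 to 8.13 TPM in etoposide-treated knockout, 6.56 to 7.63 in untreated knockout, 5.14 to 7.16 in etoposide-treated wild type and 3.56 to 4.46 TPM in untreated wild type, so that untreated wild type lay below the other groups. Of 6 neuroectoderm markers, 3 (Pax6, Otx1 and Map2) averaged under 1 TPM, and the 6 summed to 125 to 129 TPM in etoposide-treated knockout, 139 to 151 in untreated knockout, 125 to 133 in etoposide-treated wild type and 142 to 149.9 TPM in untreated wild type, lower with etoposide in both genotypes without overlap. The 6 primitive streak markers summed to 17.7 to 18.4 TPM in etoposide-treated knockout, 16.2 to 20.0 in untreated knockout, 15.5 to 16.6 in etoposide-treated wild type and 17.6 to 22.4 TPM in untreated wild type. The part of these lists in the results was not tested.

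The summed level of the G2/M and mitosis genes was lowest in etoposide-treated wild-type cells. It was 6706 to 6803 TPM in etoposide-treated knockout, 6833 to 6893 in untreated knockout, 6353 to 6383 in etoposide-treated wild-type and 6810 to 6855 in untreated wild-type libraries. The 3 libraries of etoposide-treated wild type lay below all others, at a mean of 6367 ± 15.0 TPM against 6835 ± 22.9 TPM in untreated wild type (SD, n = 3 each). In knockout cells the means were 6756 ± 48.5 TPM with etoposide and 6872 ± 33.7 TPM without, and those libraries did not overlap either. Etoposide-treated wild type had the lowest mean of the 4 groups for 37 of the 50 genes, and untreated knockout had the highest mean for 23. The matching shares of all tested genes were not computed. In a bulk sample, fewer cells in G2 or mitosis and less RNA of these genes per cell cannot be told apart.

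**Figure D2:**
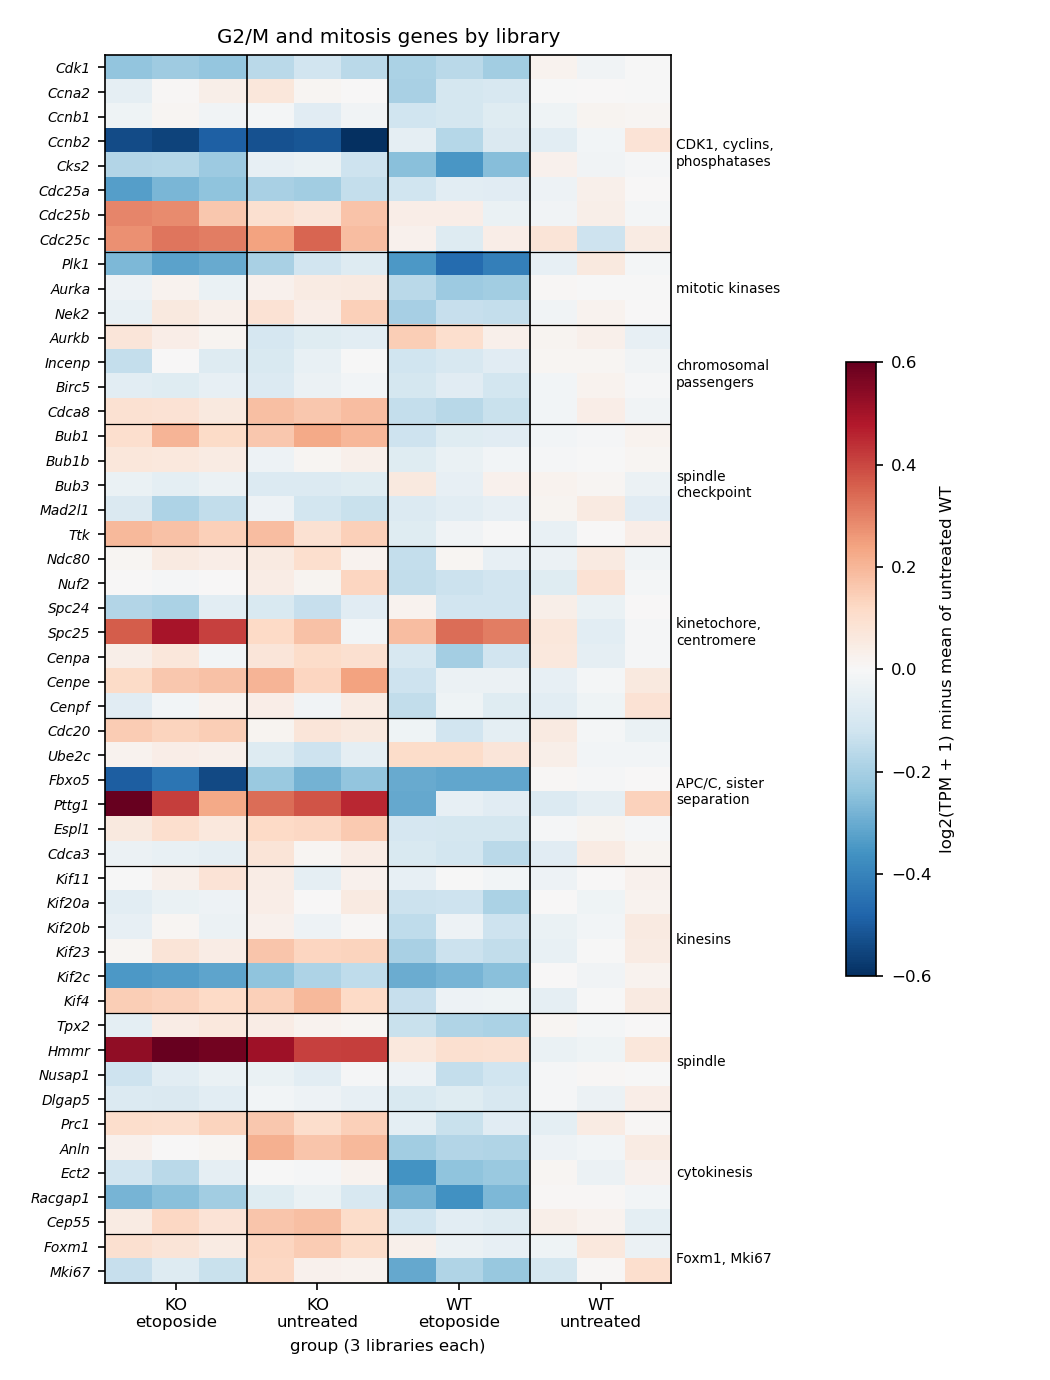
Level of each of the 50 genes in each of the 12 libraries, as log2(TPM + 1) minus the mean of untreated wild type, with genes in rows by role and groups of 3 libraries in columns; colours are capped at 0.6 in either direction. Hmmr and Pttg1 are red across both knockout groups, Ccnb2 is blue there, and Plk1, Fbxo5 and Racgap1 are blue in both etoposide groups.

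Changes were tested with limma on log2(TPM + 1) over all 14107 genes, and a Benjamini-Hochberg adjusted p under 0.05 is called a change. In untreated cells, 14 of the 50 genes were higher and 8 were lower in the knockout than in wild type. Over all tested genes 28.1% were higher and 21.5% lower, 49.6% in either direction, so the members were called about as often as genes in general. The difference was above 0 for 32 members, against 56.6% of all genes, with a median of 0.030 on the log2 scale for the members and 0.040 for all genes. All 3 knockout libraries lay above all 3 wild-type libraries for 19 members and below them for 14, against 32.8% and 24.7% of all genes. The count of lower members was 15 with FPKM or with median-of-ratios scaling, which made the split 14 higher and 15 lower. The count of all genes called lower rose too. With FPKM 3090 of 12031 genes were higher and 3204 lower. With median-of-ratios scaling 3579 of 14107 were higher and 3371 lower, against 3961 and 3039 with TPM as deposited.

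Under etoposide, 28 members were higher and 4 were lower in the knockout than in wild type, against 22.5% and 21.7% of all tested genes (44.1% in either direction). The difference was above 0 for 40 members, against 53.2% of all genes, with a median of 0.10 for the members and 0.017 for all genes. All 3 knockout libraries lay above all 3 wild-type libraries for 32 members, an arrangement found for 28.1% of all genes. They lay below them for 7 members, against 26.1% of all genes.

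Etoposide itself lowered 25 members and raised 2 in wild-type cells, against 13.5% of all genes lowered and 20.8% raised (34.3% in either direction). The same etoposide-treated wild-type libraries serve here and in the comparison of genotypes under etoposide. Low values in them thus enter both counts, which are not independent. The change was above 0 for 6 members, against 54.7% of all genes, with a median of -0.097 for the members and 0.023 for all genes. The etoposide libraries lay below the untreated ones for 30 members and above them for 2, against 19.6% and 27% of all genes. In knockout cells etoposide lowered 12 members and raised 5, against 10.5% and 14.5% of all genes (25% in either direction). Leaving out 1 library gave as few as 6 lowered, without untreated replicate 1, and 2 raised, without etoposide replicate 2. Of all 14107 genes, 1147 were lowered and 1695 raised in these respective cases, against 1484 and 2041 with every library. The count lowered was 7 without etoposide replicate 1, and the count raised was 3 without untreated replicate 1 or 3 or etoposide replicate 1. Of all genes, 1084 were lowered without etoposide replicate 1. Those raised were 1822 without untreated replicate 1, 1843 without untreated replicate 3 and 1729 without etoposide replicate 1. The change was above 0 for 14 members, against 50.5% of all genes, with a median of -0.044 for the members and 0.0018 for all genes. The etoposide libraries lay below the untreated ones for 20 members and above them for 7, against 18.1% and 21.4% of all genes. The difference between genotypes in the etoposide change, tested itself, called 0 of the 50 genes higher and 0 lower, against 0.0709% and 1.16% of all genes (1.23% in either direction). An unadjusted p under 0.05 was found for 12 members, and the share of all genes at that level was not computed.

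**Figure D3:**
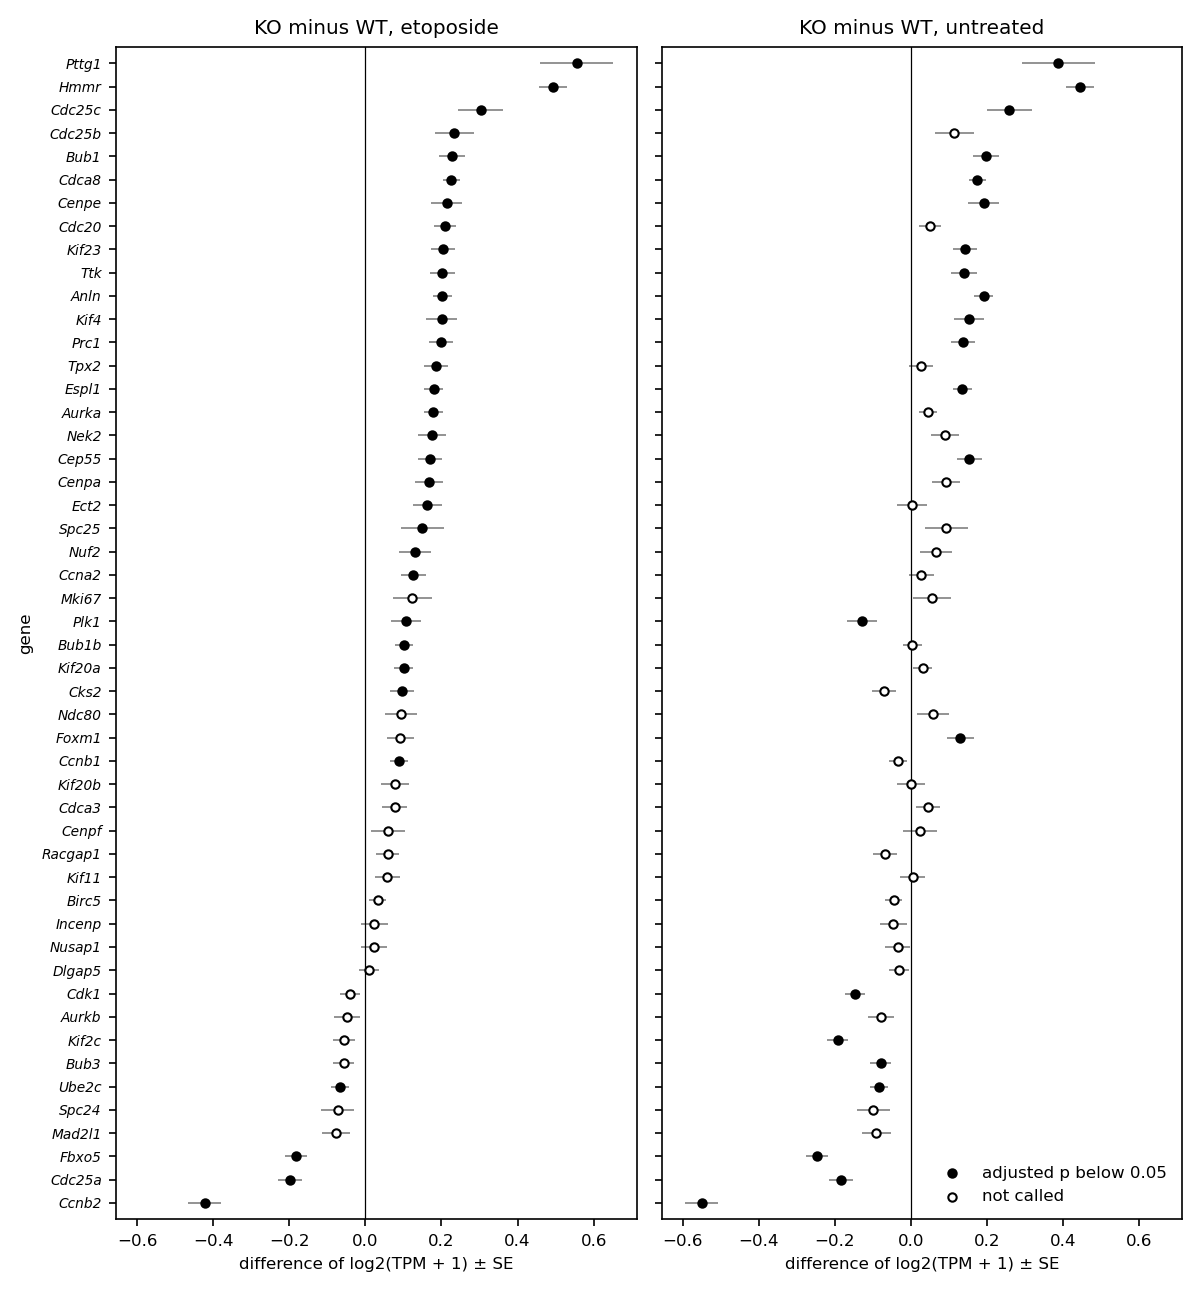
Difference between knockout and wild type for each of the 50 genes (rows, in the order of the etoposide panel), under etoposide on the left and untreated on the right, as the difference of log2(TPM + 1) with its standard error; filled points had an adjusted p below 0.05. Pttg1, Hmmr and Cdc25c lie to the right of 0 in both panels and Ccnb2 lies farthest to the left in both, at -0.42 and -0.55.

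Of the 8 genes for CDK1, its cyclins and phosphatases, 5 were higher and 2 lower in the knockout under etoposide, against 22.5% and 21.7% of all genes. Untreated, 1 was higher and 3 were lower, against 28.1% and 21.5% of all genes. Ccnb2, which encodes cyclin B2, had 108, 106 and 111 TPM in etoposide-treated knockout libraries, 109, 109 and 102 in untreated knockout, 151, 139 and 147 in etoposide-treated wild type and 149.9, 155 and 166 TPM in untreated wild type. The knockout and wild-type libraries did not overlap with or without the drug. Ccnb2 fell by 0.42 ± 0.043 in the knockout under etoposide (log2 change ± SE, adjusted p = 9.51e-06) and by 0.55 ± 0.043 in untreated cells (adjusted p = 8.25e-07), the lowest change of any member in both comparisons. Its close relative Ccnb1, encoding cyclin B1, averaged 385 ± 5.16 TPM in etoposide-treated knockout and 362 ± 5.93 TPM in etoposide-treated wild type (SD, n = 3 each), and rose by 0.088 ± 0.023 in the knockout there (adjusted p = 0.00801). In untreated cells Ccnb1 was not called, at 379.7 ± 7.91 TPM in knockout and 389 ± 6.50 TPM in wild type. How reads shared between these cyclins or with processed copies in the genome were assigned is not given in the sources used here.

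The CDC25 phosphatases, which activate CDK1 by removing inhibitory phosphates, were called in both directions. Cdc25c had 38.8, 40.2 and 39.8 TPM in etoposide-treated knockout libraries and 37.9, 41.0 and 36.4 in untreated knockout, against 32.6, 30.3 and 32.9 in etoposide-treated wild type and 33.7, 29.2 and 33.1 TPM in untreated wild type. It was higher in the knockout by 0.30 ± 0.059 under etoposide (adjusted p = 0.00133) and 0.26 ± 0.059 untreated (adjusted p = 0.0031). Cdc25b, the least abundant member, rose by 0.23 ± 0.052 in the knockout under etoposide, with 20.0, 19.9 and 18.2 TPM against 16.6, 16.6 and 15.7 TPM in wild type. Cdc25a, whose protein also acts at the start of S phase, fell by 0.20 ± 0.032 under etoposide (adjusted p = 0.000351) and by 0.18 ± 0.032 untreated (adjusted p = 0.000518). Cdk1 averaged 83.1 ± 1.61 TPM in untreated knockout and 92.0 ± 1.45 TPM in untreated wild type, a fall of 0.15 ± 0.026 (adjusted p = 0.000676). With etoposide in wild-type cells Cdk1 fell by 0.19 ± 0.026, to 80.7 ± 1.30 TPM. Cks2, a small CDK-binding subunit, fell with etoposide by 0.29 ± 0.032 in wild-type cells (225, 210.0 and 225 TPM against 274, 264 and 267 untreated) and by 0.12 ± 0.032 in knockout cells. The knockout call was lost without untreated replicate 1 or 2 or etoposide replicate 3 (adjusted p up to 0.0882). Cdk1 and Cdc25a also fell with etoposide in knockout cells, by 0.081 ± 0.026 and by 0.10 ± 0.032, but Cdk1 lost the call without any 1 of the 6 libraries and Cdc25a without replicate 1 of either group, untreated replicate 3 or etoposide replicate 2 (adjusted p up to 0.14 and 0.144 over all alternatives).

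The mitotic kinases were lowered by etoposide in wild-type cells, all 3 of 3, against 13.5% of all genes. Plk1 (chr7:121758658-121769107 on GRCm39, plus strand), the Polo-like kinase of mitotic entry and spindle assembly, had 138, 133 and 134 TPM in etoposide-treated knockout libraries, 145, 153 and 158 in untreated knockout, 131, 120.4 and 125 in etoposide-treated wild type and 161, 173 and 165 TPM in untreated wild type. No etoposide library overlapped the untreated libraries of its own genotype. Plk1 fell with etoposide by 0.40 ± 0.040 in wild-type cells (adjusted p = 7.13e-06), the lowest change of any member, and by 0.17 ± 0.040 in knockout cells (adjusted p = 0.00763). In the knockout it was 0.11 ± 0.040 higher than wild type under etoposide (adjusted p = 0.0471) but fell by 0.13 ± 0.040 in untreated cells (adjusted p = 0.0179), and it alone among the members was called in opposite directions. The call under etoposide was lost in 10 of 15 alternatives, with adjusted p up to 0.168 without wild-type replicate 2, and the untreated call was lost without wild-type replicate 2 or knockout replicate 1 (adjusted p up to 0.0795).

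Aurka (chr2:172198116-172212825, minus strand) encodes the Aurora kinase of centrosomes and spindle poles. Its levels were 179, 185 and 177 TPM in etoposide-treated knockout libraries, 186, 189 and 189.5 in untreated knockout, 163, 157 and 158 in etoposide-treated wild type and 183, 182 and 182 TPM in untreated wild type. Etoposide-treated wild type stood apart below the other 3 groups. Aurka was 0.18 ± 0.024 higher in the knockout under etoposide (adjusted p = 9.71e-05) and was not called in untreated cells (0.045 ± 0.024, adjusted p = 0.144). It fell by 0.20 ± 0.024 with etoposide in wild-type cells (adjusted p = 5.27e-05) and changed by -0.062 ± 0.024 in knockout cells (adjusted p = 0.0857). The centrosome kinase Nek2 averaged 72.1 ± 2.69 TPM in etoposide-treated knockout and 63.8 ± 1.46 TPM in etoposide-treated wild type, a rise of 0.17 ± 0.036 (adjusted p = 0.00212).

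The chromosomal passenger complex corrects faulty attachments and later guides cytokinesis. Of its 4 genes, Cdca8 (borealin) was higher in the knockout by 0.23 ± 0.023 under etoposide and by 0.18 ± 0.023 untreated, with 192, 191 and 187 TPM against 163, 160.3 and 164 TPM in wild type under etoposide. Cdca8 and Birc5 (survivin) fell with etoposide in wild-type cells, by 0.15 ± 0.023 and 0.093 ± 0.023, and the call of Birc5 was lost with quantile normalization (adjusted p = 0.298). Aurkb, the kinase of the complex, rose by 0.12 ± 0.034 with etoposide in knockout cells (adjusted p = 0.021) and averaged 103 ± 2.04 TPM there against 94.3 ± 1.34 TPM untreated. That call was lost without untreated replicate 1, etoposide replicate 1 or etoposide replicate 2 of the knockout (adjusted p up to 0.0777). Incenp was called in no comparison.

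None of the 5 spindle assembly checkpoint genes passed the limma test for etoposide in either genotype (0 of 5 in each, against 25% of all genes called in knockout and 34.3% in wild-type cells), which does not show that they were unaffected. Under an unadjusted p of 0.05 the count was 1 of 5 in each genotype, Bub1b in knockout and Bub1 in wild-type cells. The share of all genes at that level was not computed. In knockout cells the 3 etoposide libraries lay above the 3 untreated ones for Bub1b (0.056 ± 0.024) and Bub3 (0.036 ± 0.028). In wild-type cells they lay below them for Bub1 (-0.089 ± 0.034) and Bub1b (-0.042 ± 0.024). Between genotypes, Bub1 had 85.4, 91.9 and 86.2 TPM in knockout against 72.9, 75.8 and 75.8 TPM in wild type under etoposide, and 89.3, 93.5 and 91.6 against 78.7, 79.4 and 80.9 TPM untreated. It was higher by 0.23 ± 0.034 and 0.20 ± 0.034 in these comparisons (adjusted p = 0.000182 and 0.000438). The checkpoint kinase Ttk was higher by 0.20 ± 0.034 under etoposide and 0.14 ± 0.034 untreated. Bub1b (BubR1) was higher under etoposide by 0.10 ± 0.024, Bub3 fell by 0.080 ± 0.028 in the untreated knockout, and Mad2l1 was not called in any comparison. The fall of Bub3 was lost without any knockout replicate and without wild-type replicate 1 or 2 (adjusted p up to 0.108).

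At the kinetochore, Spc25 went against most of the other members. This subunit of the NDC80 complex, which grips spindle microtubules, had 121, 133 and 125 TPM in etoposide-treated knockout libraries, 102, 106 and 92.7 in untreated knockout, 106, 118 and 116 in etoposide-treated wild type and 98.2, 89.7 and 93.3 TPM in untreated wild type. The etoposide libraries lay above the untreated ones in both genotypes. Spc25 rose with etoposide by 0.33 ± 0.057 in knockout cells (adjusted p = 0.00103) and by 0.27 ± 0.057 in wild-type cells (adjusted p = 0.00246), the highest change of any member in both. Its 3 partners in the complex were not called higher: Nuf2 fell by 0.13 ± 0.042 with etoposide in wild-type cells, and Ndc80 and Spc24 were not called in either genotype. Nuf2's call was lost without untreated replicate 2 or 3 or any etoposide replicate (adjusted p up to 0.129 over all alternatives). The kinetochore kinesin Cenpe was higher in the knockout by 0.21 ± 0.041 under etoposide and 0.19 ± 0.041 untreated, and the centromeric histone Cenpa was higher by 0.17 ± 0.037 under etoposide. Nuf2 and Spc25 were also called higher in the knockout under etoposide, by 0.13 ± 0.042 and 0.15 ± 0.057, but lost the call without any 1 of 5 libraries for Nuf2 (all but wild-type replicate 3) and any 1 of 4 for Spc25 (wild-type replicates 1 and 3, knockout replicates 2 and 3), with adjusted p up to 0.0741 and 0.187 over all alternatives. Cenpf was called in no comparison.

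Of the 6 members that regulate the anaphase-promoting complex or sister separation, 3 were higher and 2 lower in the knockout under etoposide, against 22.5% and 21.7% of all genes. Untreated, 2 were higher and 2 lower, against 28.1% and 21.5% of all genes. Fbxo5 encodes EMI1, which blocks the complex through S and G2. It had 97.0, 101 and 93.7 TPM in etoposide-treated knockout libraries, 117, 112 and 116 in untreated knockout, 111, 110.2 and 110.1 in etoposide-treated wild type and 138, 136 and 137 TPM in untreated wild type. Both the knockout and the drug went with lower levels and no libraries overlapped in any of the 4 comparisons. Fbxo5 fell by 0.18 ± 0.029 in the knockout under etoposide and by 0.25 ± 0.029 untreated, and it fell with etoposide by 0.24 ± 0.029 in knockout and by 0.31 ± 0.029 in wild-type cells (adjusted p from 5.38e-06 to 0.000342).

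Pttg1, encoding securin, had 42.8, 37.5 and 32.8 TPM in etoposide-treated knockout libraries, 35.4, 36.6 and 38.5 in untreated knockout, 22.4, 26.9 and 26.6 in etoposide-treated wild type and 26.3, 26.9 and 30.8 TPM in untreated wild type. Its replicates spread more than those of most members, yet knockout and wild-type libraries did not overlap. Pttg1 was higher in the knockout by 0.55 ± 0.095 under etoposide (adjusted p = 0.000586) and by 0.39 ± 0.095 untreated (adjusted p = 0.00512). Separase, encoded by Espl1 and held in check by securin, was higher by 0.18 ± 0.024 and 0.14 ± 0.024 in the same comparisons.

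Cdc20, the activator of the complex, had 349, 344 and 347 TPM in etoposide-treated knockout libraries, 317, 330.5 and 327 in untreated knockout, 308, 289.8 and 301 in etoposide-treated wild type and 325, 312 and 305 TPM in untreated wild type. Etoposide-treated knockout libraries lay above those of every other group. Cdc20 was higher in the knockout under etoposide by 0.21 ± 0.029 (adjusted p = 0.000123) and was not called untreated (0.050 ± 0.029, adjusted p = 0.175). Its rise of 0.093 ± 0.029 with etoposide in knockout cells was lost without untreated replicate 1 or 3 or any etoposide replicate (adjusted p up to 0.123 over all alternatives). The ubiquitin-conjugating enzyme of the complex, Ube2c, was the most abundant member and rose with etoposide by 0.11 ± 0.023 in knockout (495 ± 3.44 TPM against 457 ± 11.1 TPM) and by 0.10 ± 0.023 in wild-type cells (518 ± 7.41 TPM against 485 ± 9.62 TPM). Cdca3 fell with etoposide in wild-type cells by 0.12 ± 0.032, a call lost without etoposide replicate 3 or untreated replicate 2 (adjusted p up to 0.0547).

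Hmmr (chr11:40592215-40624290, minus strand) was called higher in the knockout with and without etoposide. It encodes a microtubule-binding protein of spindle poles, also known as a hyaluronan receptor. Its levels were 182, 193 and 188 TPM in etoposide-treated knockout libraries, 179, 167 and 168 in untreated knockout, 131, 134 and 134 in etoposide-treated wild type and 122, 123 and 132 TPM in untreated wild type. Every knockout library lay above every wild-type library. Hmmr was higher in the knockout by 0.49 ± 0.037 under etoposide (adjusted p = 6.79e-07, a mean 41.1% higher) and by 0.44 ± 0.037 untreated (adjusted p = 1.22e-06, 36.4% higher). It rose with etoposide by 0.13 ± 0.037 in knockout cells (adjusted p = 0.0193), a call lost without replicate 2 or 3 of either knockout group (adjusted p up to 0.0777), and was not called in wild-type cells (0.084 ± 0.037, adjusted p = 0.0998). Of the other spindle-associated members, Tpx2, which activates Aurora A, averaged 152 ± 6.76 TPM in etoposide-treated knockout and 134 ± 2.91 TPM in etoposide-treated wild type, a rise of 0.19 ± 0.031. Tpx2 and the microtubule-bundling genes Nusap1 and Dlgap5 fell with etoposide in wild-type cells, with changes of -0.17 ± 0.031, -0.10 ± 0.034 and -0.087 ± 0.026. Nusap1 lost its call without any untreated replicate or etoposide replicate 2 or 3, and Dlgap5 without untreated replicate 3 or etoposide replicate 1 or 3 (adjusted p up to 0.147 and 0.0885 over all alternatives).

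**Figure D4:**
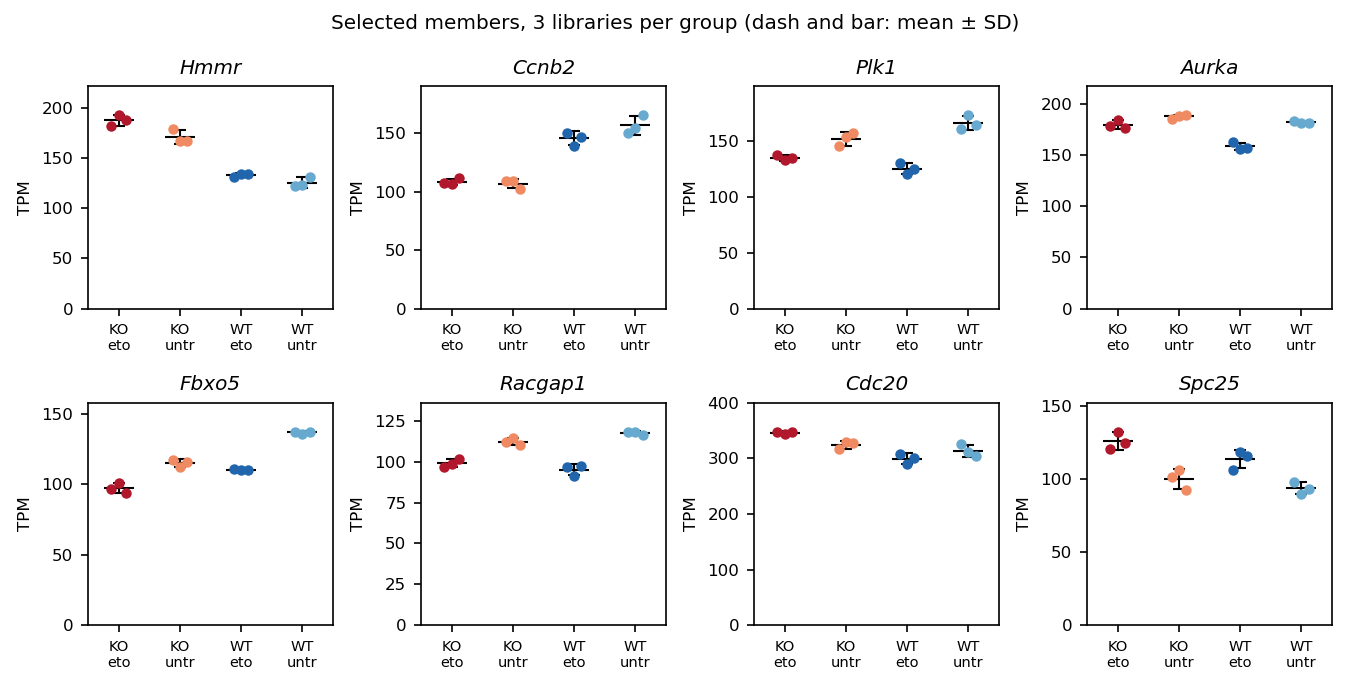
Levels of 8 members in TPM in etoposide-treated knockout (KO eto), untreated knockout (KO untr), etoposide-treated wild type (WT eto) and untreated wild type (WT untr), with a point per library and a dash and bar for the mean and SD of 3 libraries; axes start at 0. Hmmr and Ccnb2 separate by genotype, Racgap1 and Fbxo5 are lower with etoposide in both genotypes, and Spc25 is higher with it.

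The kinesins, motors that slide and organise spindle microtubules, were lowered by etoposide in wild-type cells in 4 of 6 cases, against 13.5% of all genes. Kif2c, a microtubule depolymerase, fell there by 0.28 ± 0.028, with 92.0, 93.3 and 95.1 TPM in etoposide-treated wild-type libraries against 113, 112 and 115 TPM in untreated ones. It also fell with etoposide in knockout cells, by 0.14 ± 0.028, and fell by 0.19 ± 0.028 in untreated knockout against untreated wild type (adjusted p = 0.000147). Kif23, the centralspindlin motor, was higher in the knockout by 0.20 ± 0.032 under etoposide and 0.14 ± 0.032 untreated, and Kif4, which works on chromosomes and the spindle midzone, by 0.20 ± 0.040 and 0.15 ± 0.040. Kif20a fell with etoposide in wild-type cells by 0.15 ± 0.025, Kif23 by 0.16 ± 0.032 and Kif20b by 0.10 ± 0.037, the last with overlapping libraries and a call lost without replicate 3 of either group, untreated replicate 2 or etoposide replicate 1 (adjusted p up to 0.174 over all alternatives). In knockout cells Kif20a fell by 0.078 ± 0.025 and Kif23 by 0.10 ± 0.032 with etoposide, and either call was lost without any 1 of 5 of the 6 libraries (adjusted p up to 0.281 and 0.137 over all alternatives). Kif11, the motor of spindle pole separation, was called in no comparison.

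All 5 cytokinesis genes had their 3 etoposide-treated wild-type libraries below their 3 untreated ones, against 19.6% of all genes. Of the 5, 3 were called lower, against 13.5% of all genes. Racgap1, the partner of Kif23 in centralspindlin, had 97.0, 99.1 and 102 TPM in etoposide-treated knockout libraries, 112, 115 and 110.4 in untreated knockout, 96.8, 91.4 and 97.8 in etoposide-treated wild type and 119, 118 and 117 TPM in untreated wild type. It fell with etoposide by 0.18 ± 0.031 in knockout (adjusted p = 0.00119) and by 0.30 ± 0.031 in wild-type cells (adjusted p = 1e-05). Anln, which encodes the contractile ring scaffold anillin, fell with etoposide by 0.18 ± 0.025 in knockout (193 ± 1.46 TPM against 219 ± 3.57 TPM) and by 0.19 ± 0.025 in wild-type cells (168 ± 2.26 TPM against 192 ± 5.57 TPM). Anln was also higher in the knockout by 0.20 ± 0.025 under etoposide and 0.19 ± 0.025 untreated. The RhoA activator Ect2 fell by 0.27 ± 0.039 with etoposide in wild-type cells and was 0.16 ± 0.039 higher in the knockout under etoposide. Both values rest on the same etoposide-treated wild-type libraries. Prc1 and Cep55 were higher in the knockout by 0.20 ± 0.032 and 0.17 ± 0.032 under etoposide and were not called for etoposide in either genotype.

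Foxm1, the transcription factor that drives many of these genes, averaged 60.4 ± 0.886 TPM in untreated knockout and 55.2 ± 2.15 TPM in untreated wild type, a rise of 0.13 ± 0.035 (adjusted p = 0.00878). Under etoposide its difference of 0.092 ± 0.035 was not called (adjusted p = 0.0509), and it did not pass the test for etoposide in either genotype. The proliferation antigen Mki67 had 103, 107 and 103 TPM in etoposide-treated knockout libraries, 123, 115 and 114 in untreated knockout, 90.9, 99.4 and 96.3 in etoposide-treated wild type and 105, 113 and 121 TPM in untreated wild type. It fell with etoposide by 0.24 ± 0.051 in wild-type cells (adjusted p = 0.003) and by 0.17 ± 0.051 in knockout cells (adjusted p = 0.0269). The knockout call was lost without untreated replicate 1, etoposide replicate 1 or etoposide replicate 3 (adjusted p up to 0.102).

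The comparison of genotypes was next set side by side with and without the drug, which share no libraries. Across the 50 genes, which are not independent, the differences correlated at r = 0.94 (Spearman 0.90), and over all tested genes at r = 0.85. The sign was shared by 42 of the 50 members, against 83.6% of all genes. Called higher in both were 13 members, 26% against 18.1% of all genes, and lower in both were 4 (Ccnb2, Cdc25a, Fbxo5 and Ube2c), 8% against 17.5% of all genes. Under etoposide Ube2c lost that call without any 1 of 5 libraries (all but wild-type replicate 3) and Cks2, called higher there, without wild-type replicate 2 or knockout replicate 1 or 2 (adjusted p up to 0.114 and 0.121 over all alternatives). A further 14 were called under etoposide alone and 4 untreated alone, which does not show that their differences changed.

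The etoposide change was set side by side in both genotypes in the same way. It correlated at r = 0.88 across the 50 genes (Spearman 0.80) and at 0.78 over all genes. Called lower in both genotypes were 11 members, 22% against 7.80% of all genes, and higher in both were 2 (Spc25 and Ube2c), 4% against 12.8% of all genes. The size of the change was larger in wild type for 37 of the 50 (74%), against 61.7% of all genes. The difference of the changes was positive for 48 of the 50 members, against 41.8% of all genes, with a median of 0.062 against -0.023. No single member passed the test of that difference. Plk1 came nearest, at 0.23 ± 0.056 (adjusted p = 0.0839), and without etoposide-treated knockout replicate 1 the test called Tpx2 (0.20, adjusted p = 0.0348).

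**Figure D5:**
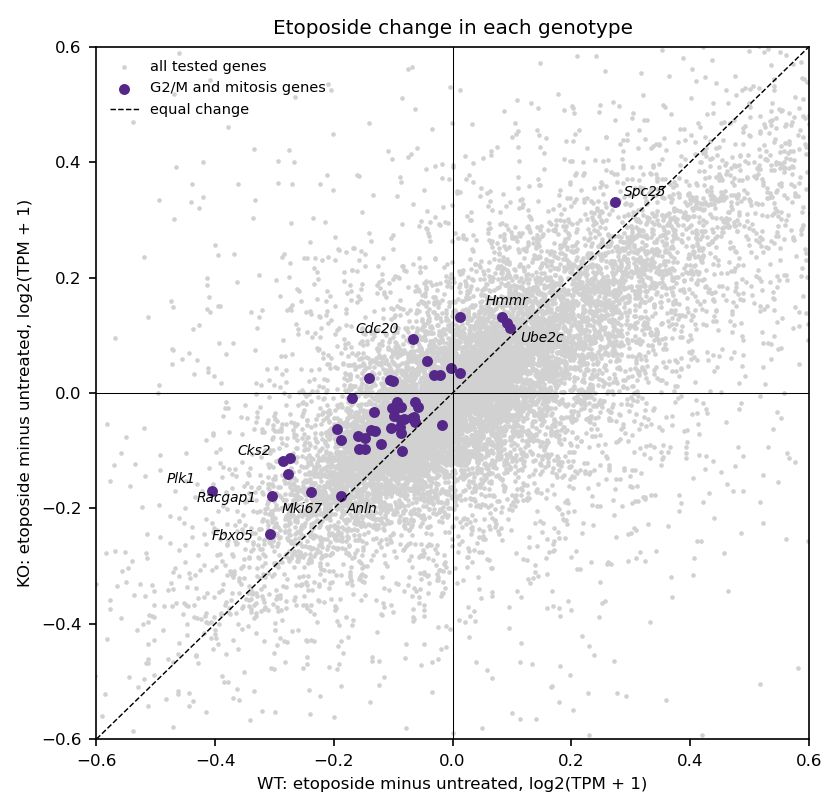
Change with etoposide in knockout cells (vertical axis) against wild-type cells (horizontal axis), both as log2(TPM + 1), for the 50 members (purple) over all tested genes (grey), with a dashed line of equal change; both axes end at 0.6, and 1086 tested genes lie outside. Most members lie left of 0 and above the dashed line, and Plk1 lies farthest left at -0.40.

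Other genes of the pathway came from lists written with earlier results of these data known, and each count is to be read against the share of all tested genes. Those shares were 22.5% higher and 21.7% lower in the knockout under etoposide, and 28.1% and 21.5% untreated. Of the 24 other mitotic kinesins and spindle genes, 14 (58.3%) were higher and 3 (12.5%) lower in the knockout under etoposide, and 13 (54.2%) were higher and 2 (8.33%) lower untreated. With etoposide 9 of them (37.5%) rose and 6 (25%) fell in wild-type cells, against 20.8% and 13.5% of all genes. Kif18b, a kinesin of microtubule plus ends, averaged 129 ± 2.09 TPM in etoposide-treated knockout, 89.6 ± 1.07 in untreated knockout, 108 ± 1.43 in etoposide-treated wild type and 68.5 ± 0.867 TPM in untreated wild type. It rose with etoposide by 0.52 ± 0.025 in knockout and by 0.65 ± 0.025 in wild-type cells, opposite to the fall of the 4 member kinesins in wild type. Of 35 other kinetochore and centromere genes, 8 (22.9%) were higher and 9 (25.7%) lower in the knockout under etoposide, shares near those of all genes. Zwilch, of the complex that recruits dynein to kinetochores, fell by 0.68 ± 0.027 there. Of 16 subunits of the anaphase-promoting complex, 4 were higher and 5 lower there (25% and 31.2%). Anapc13 averaged 42.4 ± 1.41 TPM in etoposide-treated knockout and 121 ± 13.9 TPM in etoposide-treated wild type, a fall of 1.48 ± 0.078. In that comparison 1 of 8 condensin genes was higher and 1 lower (12.5% each), 3 of 15 cohesin genes were higher (20%) and 1 lower (6.67%), and 5 of 15 centrosome and centriole genes were higher (33.3%) and 3 lower (20%).

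Among 12 MuvB, DREAM and MYBL2 genes, Rbl2 (p130, the pocket protein of DREAM) averaged 24.4 ± 0.881 TPM in etoposide-treated knockout, 15.0 ± 0.438 in untreated knockout, 22.8 ± 1.10 in etoposide-treated wild type and 9.80 ± 0.390 TPM in untreated wild type. It rose with etoposide by 0.67 ± 0.051 in knockout and 1.14 ± 0.051 in wild-type cells, and the difference of these changes was -0.47 ± 0.073 (adjusted p = 0.00766). Mybl2, the activating partner of MuvB, changed by -0.087 ± 0.021 with etoposide in knockout and by -0.15 ± 0.021 in wild-type cells, both called. Of 10 p53-linked inhibitors of G2/M progression, 7 rose and none fell with etoposide in knockout cells, against 14.5% and 10.5% of all genes, and 7 rose and 1 fell in wild-type cells, against 20.8% and 13.5%. Cdkn1a (p21) averaged 215 ± 2.72 TPM in etoposide-treated knockout, 166 ± 8.41 in untreated knockout, 222 ± 5.25 in etoposide-treated wild type and 146 ± 3.59 TPM in untreated wild type. Its rise was 0.37 ± 0.035 in knockout and 0.60 ± 0.035 in wild-type cells, and the difference of -0.23 ± 0.050 was called (adjusted p = 0.0449). It was 1 of 4 inhibitors (40%) whose rise was smaller in the knockout by that test, against 1.16% of all genes. The others were Plk2, Btg2 and Ccng1, at -0.86 ± 0.049, -0.64 ± 0.043 and -0.30 ± 0.040. Of the 10 inhibitors, 6 (60%) were higher and 0 lower in untreated knockout than in untreated wild type, against 28.1% and 21.5% of all genes. Under etoposide 5 (50%) were higher and 0 lower in the knockout, against 22.5% and 21.7%. Of 35 G1/S and replication genes, 5 (14.3%) were higher and 16 (45.7%) lower in the knockout under etoposide, against 22.5% and 21.7% of all genes, with a median of -0.088 against 0.017 for all genes. The 50 G2/M and mitosis genes held 28 higher and 4 lower there. In untreated cells 5 of the 35 (14.3%) were higher and 19 (54.3%) lower in the knockout, against 28.1% and 21.5% of all genes. The 50 held 14 higher and 8 lower in untreated cells. With etoposide in wild-type cells, 3 of the 35 (8.57%) rose and 16 (45.7%) fell, against 20.8% and 13.5% of all genes. In knockout cells 2 (5.71%) rose and 14 (40%) fell with it, against 14.5% and 10.5%.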

How the data were processed

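Per the labels, total RNA was poly(A)-selected, depleted of ribosomal RNA and made into strand-specific libraries. Per the submitters' processing notes, the tools were Trim Galore 0.6.6, cutadapt 3.4, HISAT2 2.2.1 and StringTie 2.2.1, with GRCm39 as genome build. Per the file headers, each deposited table gives TPM, FPKM and coverage per gene, computed by the authors for each library. The deposited TPM values are corrected for gene length and sum to the same total in every library, and the deposited FPKM values are corrected for length and mapped fragments. The deposited coverage is mean read depth and served only to derive aligned bases from its ratio to FPKM, shared by about 28% of genes. Read counts were not analysed here, so no count model was used. Whether reads were assigned by strand is not stated. Processed copies of some members exist in the genome, and the assignment of reads shared with them is not given in the sources used here.

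Entries sharing an identifier were summed. A gene was kept where its TPM averaged 1 or more across the 12 libraries, and limma 3.58.1 (R 4.3.3), with a trend on abundance, was fitted to log2(TPM + 1) with 4 group means. P-values were adjusted by Benjamini-Hochberg over all 14107 genes, and changes below an adjusted p of 0.05 were called. A change on this scale understates that of low genes. The median SE of a member's change was 0.033. Percent differences are of mean TPM. The code was tested on simulated data. The members and lists were chosen with earlier results of these data known. Named for each comparison were Plk1, Aurka, Hmmr, the 5 highest and 5 lowest called members and the most abundant member of each role, with other members by role, and from each other list up to 3 called genes with the lowest adjusted p. The promoters of RefSeq are on GRCm38.p6, a different build from GRCm39, the build named in the notes and used for gene positions here. Alternatives were a pseudocount of 0.1, no filter, a filter of 5, FPKM, quantile normalization, median-of-ratios scaling, the replicate block, a robust spread, the compared groups alone and leaving out each library. Python 3.11.15, numpy 2.4.6, pandas 2.3.3 and matplotlib 3.10.9 were used.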

Additional observations from a re-analysis of the deposited data

Results flagged for a closer look

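Plk1 lay higher in all 3 etoposide-treated knockout libraries than in all 3 etoposide-treated wild-type libraries, and lower in all 3 untreated knockout libraries than in all 3 untreated wild-type libraries. The interaction of etoposide and genotype was 0.23 on the log2 scale, and limma did not call it (adjusted p = 0.0839). Cks2 showed the same arrangement, with a difference of 0.17 that was not called (adjusted p = 0.14). Bub1b was higher with etoposide in all 3 knockout libraries, and lower with it in all 3 wild-type libraries, than in the untreated libraries of the same genotype. Its difference was 0.098 and was not called (adjusted p = 0.257). The share of all genes with either arrangement was not computed.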

How the results depend on the processing

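Of the members called, the call held under every alternative for 27 of 32 in knockout against wild type under etoposide, 19 of 22 untreated, 8 of 17 with etoposide in knockout and 19 of 27 in wild type, and none changed direction. The matching shares of all genes were not computed. In untreated knockout against wild type, 15 members were lower with FPKM and 15 with median-of-ratios scaling, against 8, and the added ones included Aurkb, Birc5 and Spc24. All genes lower were 3204 of 12031 with FPKM and 3371 of 14107 with median-of-ratios scaling, against 3039 of 14107. With etoposide in wild-type cells 4 members were higher with quantile normalization, against 2. Leaving out 1 library gave 2 to 4 members higher and 6 to 10 lower with etoposide in knockout cells, against 5 and 12. All genes higher were then 1695 to 1843, against 2041, and all genes lower 1084 to 1252, against 1484. The lowest member counts came without etoposide replicate 2 for higher and without untreated replicate 1 for lower members. The difference between genotypes called 0 to 1 members, and of all genes 3 to 11 higher and 90 to 186 lower. With the replicate block, members higher and lower were 27 and 4 in knockout against wild type under etoposide, 14 and 8 untreated, 5 and 11 with etoposide in knockout, 3 and 27 in wild type, and 0 and 0 for the difference of changes. In the same order, all genes higher and lower were 3077 and 2991, 3904 and 2997, 1986 and 1405, 2869 and 1833, and 6 and 116. Same-numbered libraries of different groups correlated at -0.037 to 0.045 in their deviations, so little deviation was shared by number. These values cannot show whether same-numbered libraries were prepared together. Depth was derived from aligned bases, since read counts were not analysed, and 3 libraries per group limit the precision.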

Other observations

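Several genes of mitotic entry and spindle assembly outside the 50 rose with etoposide while most of the 50 did not. Gtse1, which encodes a microtubule-binding protein that restrains p53, averaged 322 ± 2.50 TPM in etoposide-treated knockout, 254 ± 2.18 in untreated knockout, 286 ± 1.92 in etoposide-treated wild type and 209 ± 6.33 TPM in untreated wild type. It rose with etoposide by 0.34 ± 0.023 in knockout and 0.45 ± 0.023 in wild-type cells (limma adjusted p = 6.58e-07 and 2.18e-08). Ckap2, a spindle protein, rose by 0.48 ± 0.031 and 0.63 ± 0.031 in the same comparisons. Of 15 regulators of mitotic entry, 5 (33.3%) rose and 1 (6.67%) fell with etoposide in each genotype, against 14.5% and 10.5% of all tested genes in knockout and 20.8% and 13.5% in wild-type cells.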
